A study of Danio rerio with 6 samples.

Results

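The splicing regulators described here are 9 genes of 5 families, srrm4, elavl2, elavl3, elavl4, rbfox1, ptbp1a, ptbp1b, esrp1 and esrp2, measured in hair cells and surrounding cells of the adult zebrafish inner ear. They were taken by gene symbol from a table of 31387 genes, and all 9 were found. RNA was sequenced from 2 samples of hair cells and 1 sample of surrounding cells, each of 2000 cells, and the 2 technical replicates of a sample were averaged. Both groups came from females 11 to 13 months old of the strain Tg(pou4f3:GAP-GFP)s273t, in which the promoter of the hair cell gene pou4f3 drives a membrane-bound green fluorescent protein. Hair cells were the fluorescent cells and surrounding cells those without fluorescence, each pooled over the 3 otolith organs (lagena, utricle and saccule). The surrounding cell sample carries the letters WT in its name with no explanation in the labels. If WT means fish without the marker, absence of fluorescence would not keep hair cells out of that sample. Listed hair cell markers summed to 12.4 RPKM in it, against 13650 and 11901 RPKM in the hair cell samples. What WT means was not tested.

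Hair cells are the mechanosensory receptors of the ear, and they share with neurons the machinery of excitation and transmitter release although they sit in an epithelium. Alternative splicing joins the exons of 1 gene in different ways, and RNA-binding proteins bound near an exon decide whether it is kept. Neurons keep a programme of short exons through SRRM4, ELAVL and RBFOX proteins, PTBP1 holds many neuronal exons back in other cells, and the ESRP proteins direct the splice forms of epithelial cells. In the mouse, Srrm4 is needed for hair cell survival and acts on the transcript of the repressor Rest. The values below are levels of the regulators' own transcripts per gene, so they do not show splice forms or the splicing of any target.

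Among these genes, srrm4, elavl2 and ptbp1b were higher in hair cells, and esrp1, esrp2, rbfox1 and ptbp1a were lower. The levels of elavl3 and elavl4 stayed under 1 RPKM (reads scaled to gene length and to the mapped reads of the library) in all 3 samples, so they were not tested. Of 15803 genes tested with limma on log2(RPKM + 1), 17.7% were called as higher in hair cells and 18.0% as lower. A call required a log2 difference of 1 or more in either direction and an adjusted p below 0.05. Of the 9 regulators, 3 were called higher and 4 lower. The genes srrm4 and elavl2 reached the filter of 1 RPKM in hair cells alone and rbfox1 in the surrounding cells alone, so for these 3 passing the filter already required a difference. The other 4 called genes were above 1 RPKM in every sample, and of them 1 was higher and 3 were lower. A rule of size with no test asked for a 2-fold difference of RPKM + 1 in each hair cell replicate and for 1 RPKM or more in the mean of the higher group. It took the same 3 genes as higher and the same 4 as lower. It also took 18.6% of the tested genes as higher and 18.0% as lower. The test had to assume for the single surrounding cell sample the spread seen between hair cell samples. With 2 samples against 1, exact permutation can reach no p below 0.333. Both hair cell samples lying on one side of the surrounding cell sample is therefore weak evidence by itself.

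**Figure D1:**
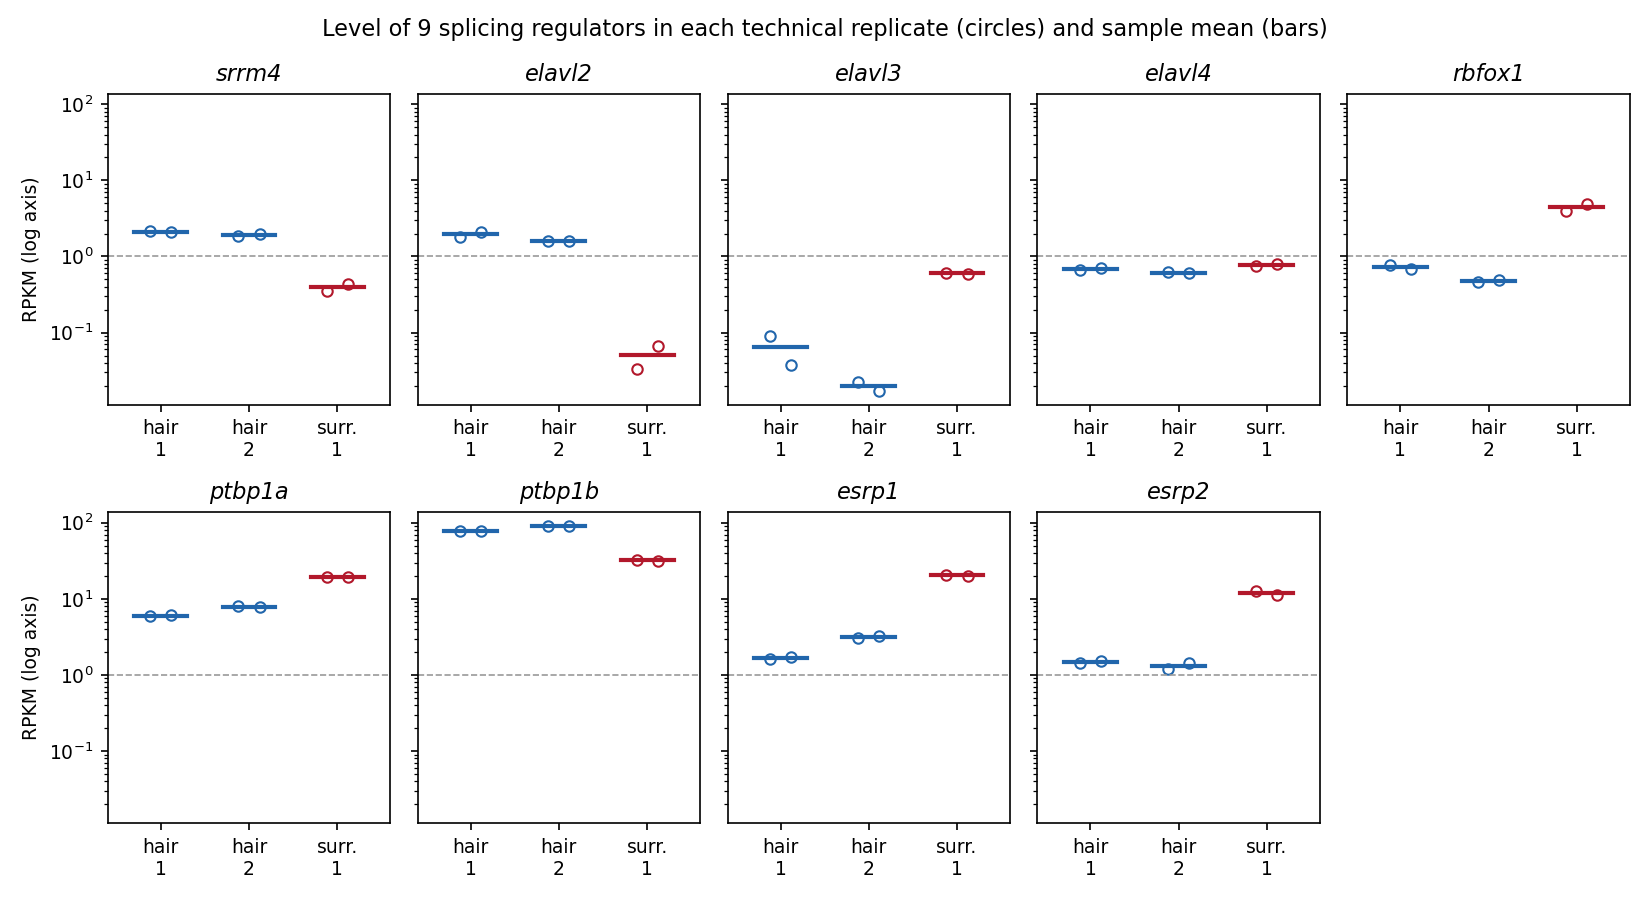
Level of each of the 9 genes in RPKM on a log axis, in hair cells 1 and 2 (blue) and surrounding cells 1 (red). Circles are technical replicates, bars are sample means and the dashed line marks the filter of 1 RPKM. The bars of srrm4 lie at 2.11 and 1.92 RPKM in hair cells and 0.396 in surrounding cells, and those of esrp2 at 1.48 and 1.31 against 12.1.

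Mapped reads numbered from 15843692 to 51566819 per library in hair cells, with replicate 2 sequenced 3.21-fold deeper than replicate 1, and 17281834 and 17066800 in surrounding cells. Recovered reads in genes made up 58.6% of mapped reads in hair cell replicate 1, 61.1% in replicate 2, and 51.0% and 50.9% in surrounding cells. Since RPKM is scaled to all mapped reads, the larger share in genes raises hair cell RPKM relative to surrounding cells. Of 13 hair cell markers tested, 13 were called higher in hair cells, and their summed level was 13650 and 11901 RPKM in hair cells and 12.4 RPKM in surrounding cells. Markers of epithelium (22 of 27 tested), mesenchyme (10 of 14), leukocytes (6 of 9), endothelium (5 of 6) and glia (3 of 6) were called lower in hair cells, while 2 leukocyte markers, lyz and CD37, were called higher. Markers of other cell types were read in both groups. The glial gene mbpa had 41.8 and 32.6 RPKM in hair cells and 35.5 RPKM in surrounding cells. Its log2 difference of 0.05 was the highest of the 6 glial markers tested, whose median was -1.21. Of 5 blood markers, summing to 290 and 105 RPKM in hair cells and 387 RPKM in surrounding cells, limma called 0, with 0 at an unadjusted p under 0.05, and limma-voom called 2 lower. Of 10 supporting cell markers tested, 8 were called as higher in hair cells and 2 as lower, while sox2, a defining gene of supporting cells, had at most 0.0152 RPKM in any sample. In bulk samples such as these, fewer cells of a type and less RNA per cell cannot be told apart.

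The gene srrm4 (ENSDARG00000086327, chromosome 5 in the deposited table) encodes the serine/arginine repetitive matrix protein that promotes inclusion of neuronal microexons. It had 2.11 and 1.92 RPKM in the hair cell replicates, from 850 and 2482 reads, and 0.396 RPKM in surrounding cells, from 172 reads. Both hair cell samples were above the surrounding cell sample. Since srrm4 passed the filter in hair cells alone, at least 1 of them had to be above it, so this order adds little. The mean was 2.01 ± 0.13 RPKM in hair cells (SD, n = 2), 5.08-fold the surrounding cell level. On the log2(RPKM + 1) scale the difference was 1.11 (SE 0.21, limma adjusted p = 0.0316), and 19.6% of all tested genes had a larger one. In hair cells the level was modest, since 61.9% of tested genes were higher than srrm4 in replicate 1 and 63.7% in replicate 2. The call is close to its threshold in size, and with median-ratio scaling the difference was 0.99 and no longer called.

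A second row of the table, named SRRM4 (2 of 2) and also on chromosome 5, was read after its values had been seen. It had 3.15 and 1.25 RPKM in hair cells, from 302 and 384 reads, and 0.252 RPKM in surrounding cells, from 26 reads. Both hair cell values were higher, but the replicates were far apart, and the log2 difference of 1.29 (SE 0.46, limma adjusted p = 0.111) was not called. The relatives srrm1 and srrm2, which encode general splicing coactivators of the same family, differed by -0.01 (SE 0.28, limma adjusted p = 0.987) and 0.36 (SE 0.33, limma adjusted p = 0.428) on the log2 scale and were not called.

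In the mouse the Rest transcript is a target of Srrm4, and Rest encodes a repressor of neuronal genes. The zebrafish gene rest had 0.174 and 0.147 RPKM in hair cells and 0.291 RPKM in surrounding cells, under the filter in every sample. Its splice forms are not separated in these values. Of 8 genes for rest and its corepressors, 5 were tested and 0 were called by limma, with 0 at an unadjusted p under 0.05. By limma-voom, which tests recovered reads with precision weights, 0 were called and 1 had an unadjusted p under 0.05. The median log2 difference of the 5 tested genes was -0.02, against 0.15 over all tested genes. Fitted without the filter, all 8 genes, rest among them, gave 0 calls by limma. In that fit 1 of them was lower in hair cells at an unadjusted p under 0.05, and 0 were higher.

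The ELAVL proteins bind AU-rich and U-rich RNA, and elavl2, elavl3 and elavl4 are the members of the family known for expression in neurons. The gene elavl2 (ENSDARG00000040732, chromosome 22) had 1.95 and 1.60 RPKM in hair cells, from 108 and 284 reads, and 0.0503 RPKM in surrounding cells, where 3 reads were counted. The log2 difference between the groups was 1.40 (SE 0.20, limma adjusted p = 0.0173). Since elavl2 passed the filter in hair cells alone, at least 1 hair cell sample had to be above the surrounding cells. That both were above adds little. The ratio of hair cells to surrounding cells was 38.8 for replicate 1 (95% interval 12.9 to 191) and 31.8 for replicate 2 (10.8 to 155), with exact intervals for the ratio of read counts that cover counting error only. With only 3 reads in surrounding cells, limma-voom gave a log2 difference of 4.85 and an adjusted p of 0.183, which was not called.

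The gene elavl3 (ENSDARG00000014420, chromosome 3), a widely used marker of neurons in zebrafish, went the other way. It had 0.0643 and 0.0201 RPKM in hair cells, from 7 reads in each replicate, and 0.598 RPKM in surrounding cells, from 70 reads. The surrounding cell level was 9.29 times that of hair cell replicate 1 (95% interval 4.28 to 23.9) and 29.8 times that of replicate 2 (13.7 to 76.8), by counting error alone. Both intervals lay above 1, but elavl3 was below the filter in all 3 samples. Fitted without the filter, its adjusted p by limma was 0.0370, and its log2 difference of -0.62 did not reach the size required for a call.

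The gene elavl4 (ENSDARG00000045639, chromosome 8) had 0.678 and 0.612 RPKM in hair cells, from 144 and 417 reads, and 0.770 RPKM in surrounding cells, from 176 reads. The hair cell values were a little lower, by 0.08 and 0.13 on the log2(RPKM + 1) scale. By counting error the surrounding cell level was 1.14 times that of hair cell replicate 1 (95% interval 0.906 to 1.42) and 1.26 times that of replicate 2 (1.05 to 1.50), so the interval included 1 for replicate 1. The 3 neuronal genes thus stood in different orders. Of their summed RPKM, elavl2 made up 72.4% and 71.6% in hair cells and 3.55% in surrounding cells, and elavl3 made up 2.39% and 0.901% in hair cells and 42.2% in surrounding cells. The sum itself was 2.69 and 2.23 RPKM in hair cells and 1.42 RPKM in surrounding cells.

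The broadly expressed relative elavl1 was more abundant than the sum of the 3 neuronal genes in each sample. It had 8.50 and 23.7 RPKM in hair cells and 4.86 RPKM in surrounding cells. Both hair cell values were higher, but they were far apart from each other, and the log2 difference of 1.39 (SE 0.68, limma adjusted p = 0.195) was not called.

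Neuron markers were read beside these genes, since nerve fibres and neurons lie close to the sensory epithelia. Of 30 neuron markers found, 15 were tested, 8 were called higher in hair cells and 1, ntrk2a, was called lower. Without the filter all 30 were fitted, and limma called 5 higher and 1 lower. At an unadjusted p under 0.05 by limma, 8 were then higher and 7 lower. The summed level of the 30 markers was 253 and 233 RPKM in hair cells and 40.4 RPKM in surrounding cells. The highest were the synuclein gene sncb, with 129 and 110 RPKM in hair cells and 1.19 RPKM in surrounding cells, and the genes gng3, dpysl3 and isl2b. The neuronal transcription factor gene neurod1 was at 0 in both hair cell samples and had 0.120 RPKM in surrounding cells. At 0 in 1 hair cell sample were ntrk3b and slc17a6b, and nefla and nefma were at 0 in surrounding cells. Each of these genes was under 1 RPKM in all 3 samples. The part of other cell types in the values of srrm4 and the ELAVL genes was not tested.

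**Figure D2:**
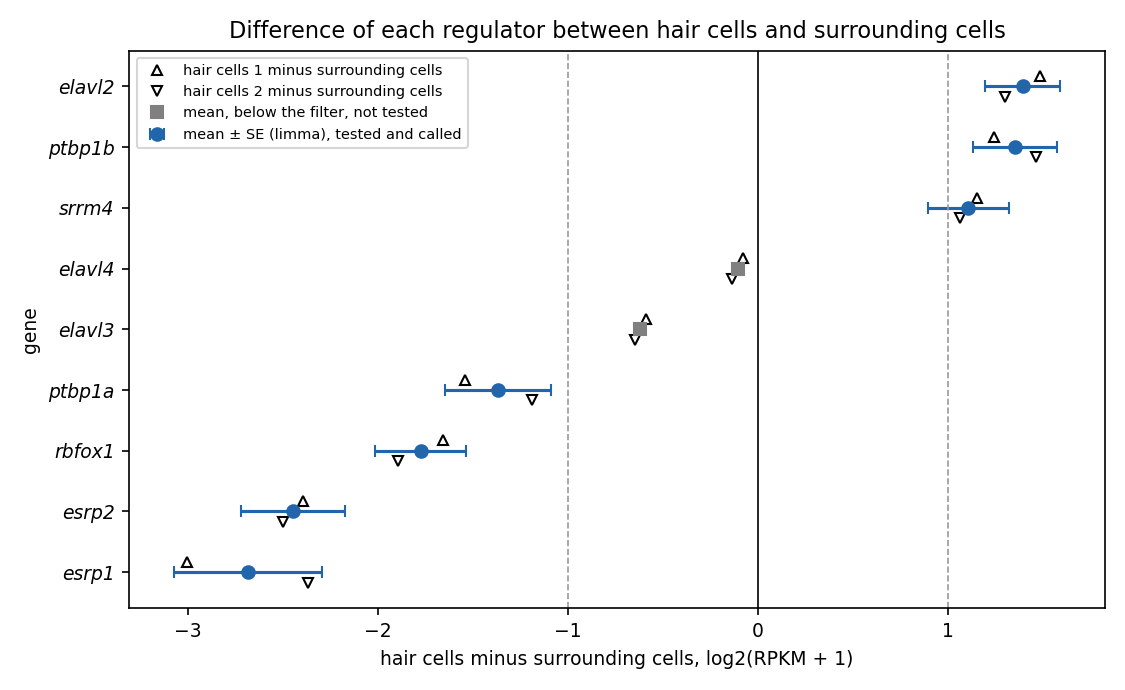
Difference in log2(RPKM + 1), hair cells minus surrounding cells, for the 9 genes, with triangles for each hair cell replicate, circles for the mean with its SE from limma and squares for the mean of the 2 genes below the filter. Dashed lines mark a difference of 1 in either direction. The means run from 1.40 for elavl2 to -2.68 for esrp1. Both triangles lie on the same side of 0 for each gene, an order that carries little weight with 2 samples against 1.

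RBFOX proteins bind UGCAUG in introns and promote or block the neighbouring exon in neurons, heart and muscle. The gene rbfox1 (ENSDARG00000014746, chromosome 3) had 0.735 and 0.475 RPKM in hair cells, from 108 and 224 reads, and 4.47 RPKM in surrounding cells, from 707 reads. Both hair cell samples were below the surrounding cell sample, by 7.39-fold for the mean of 0.605 ± 0.18 RPKM (SD, n = 2). Since rbfox1 passed the filter in surrounding cells alone, this order was already given and adds no support. The log2 difference was -1.77 (SE 0.24, limma adjusted p = 0.0160), and 9.36% of tested genes had a lower one. The technical replicates of the surrounding cells gave 4.01 and 4.94 RPKM, and with either of them alone rbfox1 was again called lower. With a pseudocount of 5 RPKM the log2 difference was -0.76 and was not called.

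The relative rbfox2, which is expressed in many tissues, had 1.77 and 1.23 RPKM in hair cells and 0.703 RPKM in surrounding cells. Its log2 difference of 0.55 (SE 0.24, limma adjusted p = 0.166) was opposite in sign to that of rbfox1 and was not called. The relative rbfox1l, a muscle gene in zebrafish, had 0.0701 and 0.0044 RPKM in hair cells and 0.261 RPKM in surrounding cells and was below the filter. Of the summed RPKM of these 3 genes, rbfox1 made up 28.5% and 27.7% in hair cells and 82.3% in surrounding cells, while rbfox2 made up 68.8% and 72.0% in hair cells and 12.9% in surrounding cells.

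Most of the muscle genes tested moved in the same direction as rbfox1, but not all. In a list of 25 muscle genes added after the data were seen, 13 were tested, 10 were called lower in hair cells and 1, desma, higher. The share called lower was 76.9%, against 18.0% of all tested genes. Without the filter, 15 of the 25 were lower and 2 higher at an unadjusted p under 0.05 by limma. The summed level was 20.3 and 24.8 RPKM in hair cells and 91.5 RPKM in surrounding cells. The most abundant in surrounding cells were the parvalbumin genes pvalb1, with 0.943 and 0.913 RPKM in hair cells and 19.1 RPKM in surrounding cells, and pvalb4, with 0.310 and 0.303 RPKM in hair cells and 15.1 RPKM in surrounding cells. They were followed by the myosin light chain genes mylpfa and mylz3, at 12.3 and 11.2 RPKM in surrounding cells. The troponin gene tnni2a.4 was at 0 in both hair cell samples and had 0.419 RPKM, from 11 reads, in surrounding cells. The skeletal muscle genes acta1b, neb and actn3b also had less than 1 RPKM in all samples. In the other direction, mylpfb had 0.411 and 1.47 RPKM in hair cells and 0.139 RPKM in surrounding cells and was not called. The gene myhz2, below the filter, had 0.592 and 0.647 RPKM in hair cells and 0.0875 RPKM in surrounding cells. The part of muscle cells in the level of rbfox1 was not tested.

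PTBP1 binds CU-rich RNA and represses neuronal exons, and zebrafish have 2 copies of the gene. The copies differed in opposite directions. The gene ptbp1a (ENSDARG00000019362, chromosome 2) had 5.98 and 7.91 RPKM in hair cells, from 823 and 3492 reads, and 19.3 RPKM in surrounding cells, from 2863 reads. Both hair cell samples were below the surrounding cell sample, 2.78-fold for the mean of 6.94 ± 1.36 RPKM (SD, n = 2). The log2 difference was -1.37 (SE 0.28, limma adjusted p = 0.0356). With the first technical replicate of each sample alone, the difference was -1.36 and the adjusted p by limma was 0.0502, just over the threshold.

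The gene ptbp1b (ENSDARG00000031907, chromosome 11) had 76.9 and 90.1 RPKM in hair cells, from 10037 and 37727 reads, and 31.9 RPKM in surrounding cells, from 4487 reads. Both hair cell samples were above the surrounding cell sample. The mean of 83.5 ± 9.32 RPKM (SD, n = 2) was 2.62-fold the surrounding cell level, and the log2 difference was 1.36 (SE 0.22, limma adjusted p = 0.0228). It was the most abundant of the 9 genes in each sample, and only 3.66% and 3.44% of tested genes were above it in the hair cell replicates and 6.38% in surrounding cells.

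Together the copies had 82.8 and 98.0 RPKM in hair cells and 51.2 RPKM in surrounding cells. The share of ptbp1b in this sum was 92.8% and 91.9% in hair cells and 62.3% in surrounding cells. The hair cell replicates were thus nearly alike in this share. How reads that fit both copies were counted is not stated in any source used here, so the split between ptbp1a and ptbp1b is uncertain.

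The related gene ptbp3, a repressor of the same family known from blood cells in mammals, was still more abundant. It had 212 and 125 RPKM in hair cells and 58.1 RPKM in surrounding cells, and its log2 difference of 1.47 (SE 0.40, limma adjusted p = 0.0658) passed the rule of size but not the test. The genes ptbp2a and ptbp2b, copies of the PTBP gene that neurons use, were less abundant than ptbp1b and ptbp3 in each sample and were not called. The gene ptbp2a had 3.73 and 5.70 RPKM in hair cells and 3.14 RPKM in surrounding cells (log2 difference 0.44, SE 0.35, limma adjusted p = 0.379). The gene ptbp2b had 4.42 and 4.81 RPKM in hair cells and 2.10 RPKM in surrounding cells (0.86, SE 0.27, limma adjusted p = 0.0865). Summed over ptbp1a, ptbp1b, ptbp2a, ptbp2b and ptbp3, the family had 303 and 234 RPKM in hair cells and 115 RPKM in surrounding cells.

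RAVER proteins bind PTBP1 and act as its corepressors. The gene raver2 had 6.74 and 7.20 RPKM in hair cells and 1.50 RPKM in surrounding cells and was called higher (log2 difference 1.67, SE 0.26, limma adjusted p = 0.0211). The gene raver1 had 1.39 and 1.03 RPKM in hair cells and 2.16 RPKM in surrounding cells and was not called (log2 difference -0.52, SE 0.25, limma adjusted p = 0.182). Among the 9 tested relatives of the regulators raver2 was the only gene called by limma on log2(RPKM + 1), and limma-voom called 3 of them, each higher.

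ESRP1 and ESRP2 bind GU-rich RNA and set the epithelial splice forms of genes such as the fibroblast growth factor receptors. Both genes were lower in hair cells by about the same factor. The gene esrp1 (ENSDARG00000011245, chromosome 16) had 1.67 and 3.15 RPKM in hair cells, from 230 and 1394 reads, and 20.4 RPKM in surrounding cells, from 3030 reads. The hair cell replicates were 1.89-fold apart, and both were far below the surrounding cells. The mean of 2.41 ± 1.05 RPKM (SD, n = 2) was 8.47-fold below the surrounding cell level. The log2 difference of -2.68 (SE 0.39, limma adjusted p = 0.0183) had 4.23% of tested genes below it.

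The gene esrp2 (ENSDARG00000018814, chromosome 7) had 1.48 and 1.31 RPKM in hair cells, from 164 and 465 reads, and 12.1 RPKM in surrounding cells, from 1436 reads. Its hair cell replicates were close together, and both were below the surrounding cells. The mean of 1.40 ± 0.12 RPKM (SD, n = 2) was 8.63-fold below the surrounding cell level, and the log2 difference was -2.45 (SE 0.27, limma adjusted p = 0.0113). Of the 7 tested regulators, esrp2 was the only one called under each alternative setting that had a test. Neither gene was at the floor of detection in hair cells. The sum of the pair was 3.15 and 4.46 RPKM in hair cells and 32.4 RPKM in surrounding cells, and esrp1 made up 52.9% and 70.6% of it in hair cells and 62.8% in surrounding cells.

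Epithelial markers fell along with the esrp genes. Of 27 tested, 22 were called lower in hair cells and 1, prr15la, higher, with a median log2 difference of -2.75 against 0.15 over all tested genes. Their summed level was 693 and 805 RPKM in hair cells and 12850 RPKM in surrounding cells, led there by the keratin genes krt91, krt5, krt97 and krt4. The marker krt97 had 0 and 0.117 RPKM in hair cells and 1835 RPKM in surrounding cells. The marker cldne was at 0 in both hair cell samples but had only 0.0418 RPKM, from 3 reads, in surrounding cells, so its 0 shows little. The adhesion genes epcam and cdh1 were lower but not at 0, with 191 and 249 RPKM of epcam in hair cells against 817 RPKM in surrounding cells, and 10.1 and 16.7 RPKM of cdh1 in hair cells against 70.5 RPKM in surrounding cells. The part of keratin-rich epithelial cells in the levels of esrp1 and esrp2 was not tested.

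**Figure D3:**
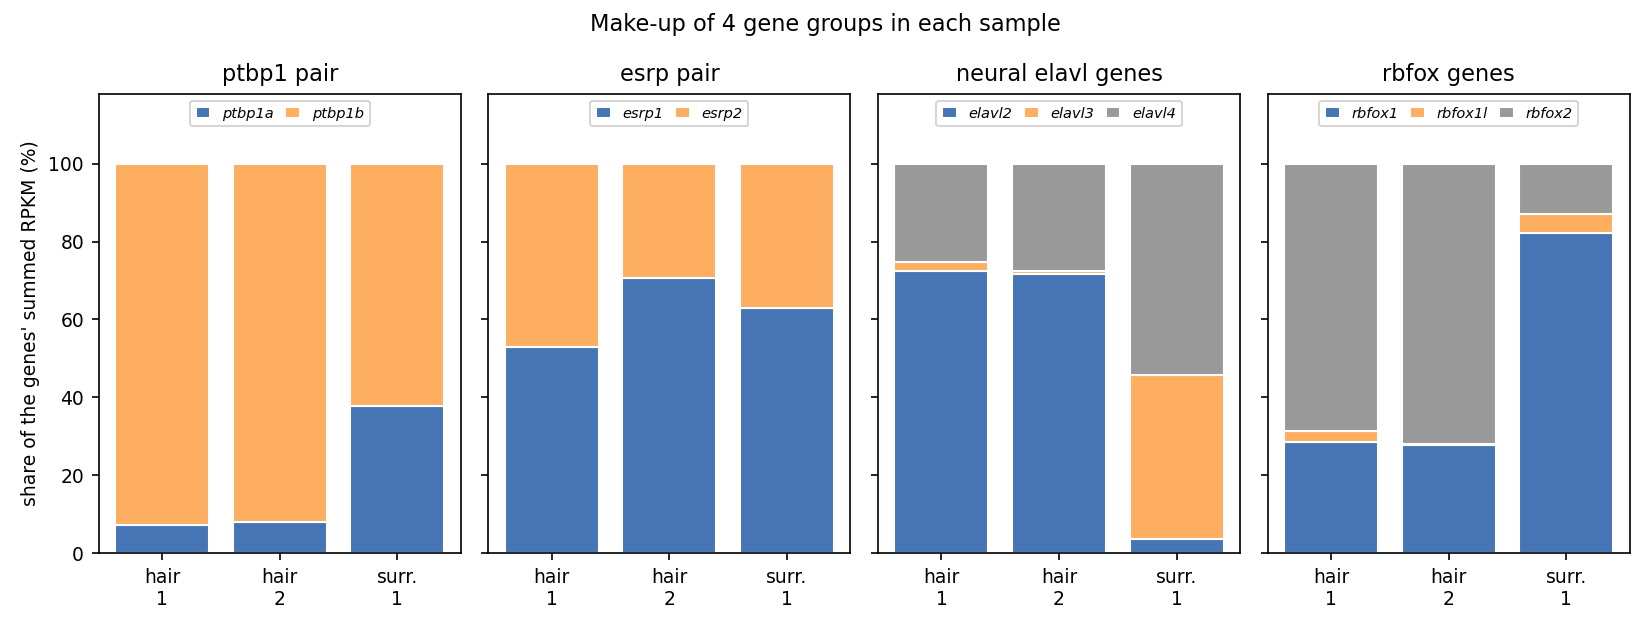
Share of each gene in the summed RPKM of the ptbp1 pair, the esrp pair, the 3 neuronal elavl genes and the 3 rbfox genes, stacked to 100%, for hair cells 1, hair cells 2 and surrounding cells 1. The hair cell bars are much alike for the ptbp1, elavl and rbfox groups, with ptbp1b at 92.8% and 91.9%, elavl2 at 72.4% and 71.6% and rbfox1 at 28.5% and 27.7%, against 62.3%, 3.55% and 82.3% in surrounding cells.

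The other splicing genes of the table were read in 5 lists, namely close relatives of the 9 regulators, other regulators known from neurons, muscle or other tissues, hnRNP genes, SR protein genes and core spliceosome genes. Of 133 found, 125 were tested, and 17 (13.6%) were called as higher in hair cells and 2 (1.6%) as lower. Over all tested genes the shares were 17.7% higher and 18.0% lower, so the share of the splicing genes called higher was below that of all genes and the share called lower was far smaller. Their median log2 difference was 0.47, against 0.15 over all tested genes. Of the hnRNP genes 5 of 20 were called higher, with a median of 0.67. The SR protein genes had 2 of 18 called higher and the core spliceosome genes 3 of 48, with medians of 0.44 and 0.38, and 0 genes of these 3 lists were called lower or had an unadjusted p under 0.05 in that direction by limma. By limma-voom 1 SR protein gene was called lower. The gap between list medians and all genes depended on the filter. At a filter of 5 RPKM the median over all tested genes was 0.43. The list medians were then 0.42 for core spliceosome genes, 0.50 for SR protein genes and 0.63 for hnRNP genes. They were 0.66 for other tissue regulators and 0.91 for close relatives.

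Of the 30 other tissue regulators tested, 6 were called higher and 2 lower, with a median of 0.30. The gene rbm24a, which encodes a splicing factor of muscle and the heart, had 212 and 302 RPKM in hair cells and 2.88 RPKM in surrounding cells (log2 difference 6.03, SE 0.31, limma adjusted p = 0.00719). The RNA-binding protein gene msi1 had 14.3 and 21.3 RPKM in hair cells and 1.34 RPKM in surrounding cells, and celf3b, of a family known from the brain, had 2.70 and 5.04 RPKM in hair cells and 0.198 RPKM in surrounding cells. In the other direction, qkia, which encodes a quaking protein, had 2.11 and 1.78 RPKM in hair cells and 12.9 RPKM in surrounding cells, and rbpms2a had 0.782 and 0.351 RPKM in hair cells and 6.77 RPKM in surrounding cells. These 5 genes were named for the largest called differences of their list. That the replicates of each lay on one side of the surrounding cells therefore adds no support.

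The genes nova1 and nova2, whose proteins are neuronal splicing factors, were below 1 RPKM in all samples. For nova1 the levels were 0.321 and 0.361 RPKM in hair cells and 0.226 RPKM in surrounding cells, and for nova2 they were 0.147 and 0.119 RPKM in hair cells and 0.133 RPKM in surrounding cells. Among hnRNP genes the largest differences were 1.54 for hnrnpa3, 1.39 for hnrpdl and 1.37 for hnrnpa0a. Those called among SR protein genes were srsf7b and srsf5b, with log2 differences of 1.24 and 1.14. The 3 core spliceosome genes called were snrnp27, snrpe and txnl4a, with log2 differences of 1.51, 1.48 and 1.14.

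**Figure D4:**
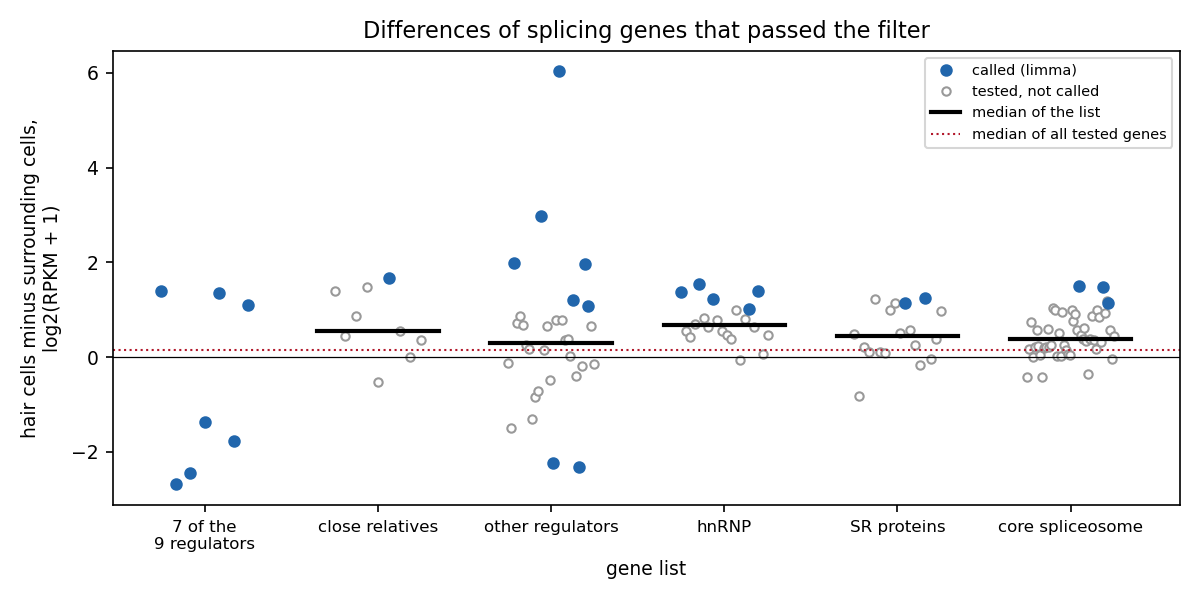
Difference in log2(RPKM + 1), hair cells minus surrounding cells, for the 7 tested regulators and the genes of the 5 splicing lists that passed the filter. Filled circles were called by limma and open circles were not, black bars are list medians and the dotted line is the median of all tested genes, 0.15. The list medians run from 0.30 for other tissue regulators to 0.67 for hnRNP genes, and rbm24a stands highest at 6.03.

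Changes of pseudocount, scaling and test moved the size of the differences of the 7 tested genes but not their direction. They were not run for elavl3 and elavl4. Over the alternatives the log2 difference of esrp2 ran from -3.15 to -1.41, that of esrp1 from -3.10 to -1.78, that of ptbp1b from 1.08 to 1.47 and that of ptbp1a from -1.63 to -1.03. For the genes of low RPKM the range was wider, with 0.38 to 2.33 for srrm4, 0.42 to 4.85 for elavl2 and -3.07 to -0.76 for rbfox1. Without the filter on low values the log2 differences were the same, but esrp2 was the only one of the 7 still called, and the adjusted p by limma of the other 6 ran from 0.0586 to 0.0831. Leaving out either hair cell replicate left 1 sample in each group and no test. The log2 difference was then 1.06 or 1.15 for srrm4, 1.31 or 1.49 for elavl2, 1.47 or 1.24 for ptbp1b, -1.19 or -1.54 for ptbp1a, -1.89 or -1.66 for rbfox1, -2.37 or -3.00 for esrp1 and -2.50 or -2.39 for esrp2, without replicate 1 or without replicate 2. In the labels the sequence names of replicate 1 and of the surrounding cells start alike and those of replicate 2 start differently, with no word on what this marks. The values without replicate 2 are therefore also those within that shared naming.

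**Figure D5:**
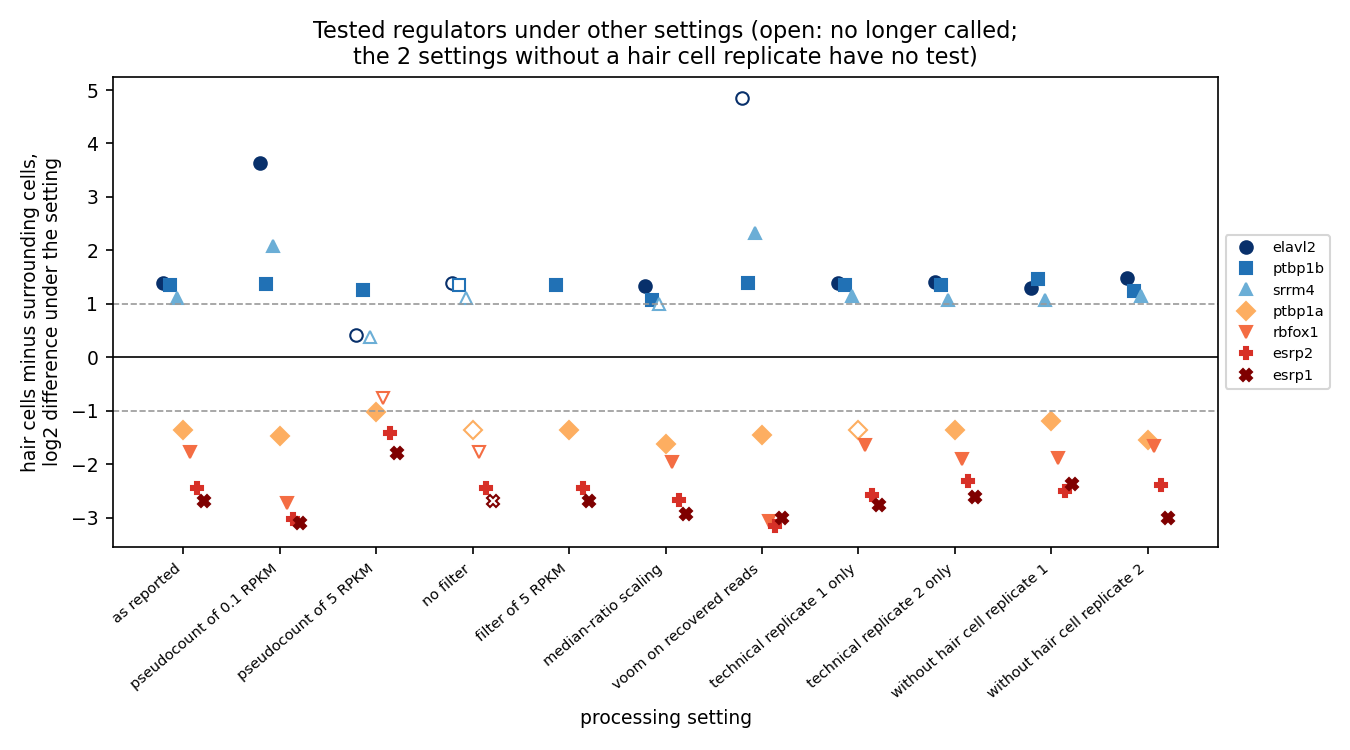
Log2 difference, hair cells minus surrounding cells, of the 7 tested regulators as reported and under 10 other settings. Open symbols were no longer called, and the 2 settings that leave out a hair cell replicate have no test. Without the filter on low values esrp2 at -2.45 was the only gene still called, and each gene kept its side of 0 in all settings plotted.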

How the data were processed

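RNA of the collected cells was isolated with the Qiagen miRNeasy kit and turned into cDNA and amplified with the Clontech SMART-Seq kit. The authors deposited RPKM values per gene and technical replicate, made from reads mapped to GRCz10 by the submitters' processing notes. The aligner, the counter and whether strand was used were not given in the sources used here. Left out were 4 columns of averages and standard deviations by the authors. Technical replicates share an index and differ in lane, so they measure sequencing alone. Whole reads (within 0.001 of a read) were recovered from the steps between RPKM values for all 15803 tested genes, and for some genes a common factor may be missing from these reads.

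Genes with at least 1 RPKM in 1 sample were fitted with limma 3.58.1 in R 4.3.3 on log2(RPKM + 1), with a variance trend and Benjamini-Hochberg adjustment over all tested genes. The fit had 1 residual degree of freedom, 3.42 after moderation. Nothing says whether the hair cell replicates came from separate fish, so p-values measure the spread between these samples. The regulators and gene lists were chosen with earlier results of these data known. Named genes were the 9 regulators, their tested relatives, the 3 genes called with the largest difference in each direction of every other splicing list, and the most abundant markers of a cell type list. Others, among them nova1, nova2, rbfox1l, epcam, cdh1, mbpa and the markers at or near 0, were chosen after their values were seen. Alternatives were other pseudocounts, filters, scaling, technical replicates, left-out replicates and limma-voom on recovered reads, which pooled the spread over all genes.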

Additional observations from a re-analysis of the deposited data

How the results depend on the processing

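The counts rested on few degrees of freedom and on the filter. With a pseudocount of 5 RPKM, limma called 1603 genes as higher and 1225 as lower, with 1 regulator (ptbp1b) called higher, and the rule of size took 1 as higher and 2 as lower. With no filter limma called 1464 genes as higher and 1740 as lower. Of the regulators it called 0 higher (3 at an unadjusted p under 0.05) and 1 (esrp2) lower. Limma-voom was run only on the 15803 genes that passed the filter of 1 RPKM, and it called 2 regulators higher and 4 lower. With no filter the log2 differences were the same, and the limma fit had 2.05 degrees of freedom after moderation. The adjusted p of the other 6 regulators ran from 0.0586 to 0.0831 by limma. With a filter of 5 RPKM, 2709 genes (61.3% of calls) were higher and 1713 lower, against 49.5% higher as reported, and 1 regulator (ptbp1b) was higher, also by the rule of size, since srrm4, elavl2 and rbfox1 did not reach that filter. Median-ratio scaling shifted the median of all genes by -0.21 and called 2309 genes (40.3% of calls) as higher and 3419 as lower, and the rule of size then took 1 regulator as higher. The shift also lowered the list medians, which stayed above 0 (0.42 for hnRNP genes, 0.06 for other tissue regulators). No paired analysis was possible because the groups share a single replicate number. Depth limits elavl2 and elavl3, with 3 reads of elavl2 in surrounding cells and 7 reads of elavl3 in each hair cell sample. The order of genes close in size, such as elavl2 and ptbp1b or esrp1 and esrp2, changed between settings.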

Other observations

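Other symbols of these families were found in the table after its values had been seen. A second musashi row, MSI1 (ENSDARG00000041299), had 19.6 and 31.3 RPKM in hair cells and 6.41 RPKM in surrounding cells. It was called higher like msi1 (log2 difference 1.80, SE 0.37, limma adjusted p = 0.0358). The neuronal RBFOX relative rbfox3l had 0.689 and 0.602 RPKM in hair cells and 1.17 RPKM in surrounding cells and was not called (limma adjusted p = 0.138), and rbfox3 was below the filter.

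By distance of log2(RPKM + 1) over the 3 samples, the genes nearest to elavl2 were slc41a1, tcte1 and si:ch211-81a5.8, at distances of 0.087, 0.091 and 0.095. Those nearest to esrp1 were tnfrsf1a, traf3ip2l and si:dkey-237p10.2, at 0.126, 0.178 and 0.205. With 3 samples many genes share a pattern, and these distances are a description.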
